A study of Mus musculus with 22 samples.

Results

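Untreated 4T1 cells were compared with untreated NIH3T3 cells at RNA 3′ ends, for the level of transcripts and for the choice between poly(A) sites. The 4 libraries were chosen by their labels, 2 of 4T1 and 2 of NIH3T3, out of 22 in the series. All 4 were made by 3′READS, which reads the last stretch of an RNA before its tail and so gives the position and strand of the 3′ end. 4T1 is an epithelial line from a mouse mammary carcinoma and NIH3T3 a line of mouse embryo fibroblasts. Both groups carry the label Untreated, and no deletion, transgene or siRNA is given for either. The labels list the strain as C57BL/6 for both lines, although 4T1 is known as a BALB/c line and NIH3T3 as a line from Swiss mouse embryos. Libraries of untreated C2C12 myoblasts (4 libraries) and treated libraries of the same lines, 2 of 4T1 labelled Pcf11-IPAKO and 2 of NIH3T3 labelled siPcf11, were used for reference. The 4T1 and NIH3T3 libraries were run apart, so a difference between the lines and one between the runs cannot be told apart in any result. No label states that libraries of a line are separate cultures. The p-values therefore rest on a spread between libraries that may be only technical. Fewer cells of a type and less RNA per cell cannot be told apart in such bulk samples.

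A messenger RNA is cut downstream of a poly(A) signal by the cleavage and polyadenylation machinery, and a poly(A) tail is added to the new end. Many mammalian genes carry several such sites. Use of a site nearer the promoter (proximal) gives a shorter 3′ untranslated region, or a truncated transcript when the site lies in an intron, and use of a distal site a longer one. Cell types are known to differ in which site they prefer, and proliferating and transformed cells are often described as using more proximal sites. Epithelial cells and fibroblasts also differ in cell adhesion, cytoskeletal and extracellular matrix genes.

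The deposited site tables give positions in mm9 without naming genes, and the only gene table at hand is of another build, GRCm38.p6. Coordinates were not converted, so genes, introns and untranslated regions were not assigned, no sequence was read, and the epithelial and fibroblast identity of the lines was not checked against markers. The unit of comparison was a site group, a chain of poly(A) sites on a strand with gaps of up to 5 kb. A site group can hold part of a gene or several genes.

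The libraries held 2215240 and 3752132 reads for 4T1 and 3142949 and 3331090 for NIH3T3. Positions within 24 nt were joined, and sites that reached 1 CPM (reads scaled to the size of the library) in 2 or more of the 4 libraries were kept. This left 31083 sites in 18366 site groups, which held 96.9 to 97.7% of each library's reads. Of the site groups, 12312 had 1 site, and 4995 had at least 2 sites that each took 5% or more of the group's reads. Replicates differed by more than counting noise, by a chi-square of 10.5 per degree of freedom between the 4T1 libraries and 2.59 between the NIH3T3 libraries, against 61.8 between the first libraries of the lines.

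The transcript levels of the lines were far apart. Of 13546 site groups with enough reads for the test, 9453 (69.8%) differed in level, 3701 (27.3%) higher and 5752 (42.5%) lower in 4T1 (edgeR quasi-likelihood test, Benjamini-Hochberg adjusted p under 0.05). Of the former 3117 differed by 2-fold or more, and of the latter 5360. At least 10-fold differences were found at 835 site groups in the direction of 4T1 and at 2695 in the direction of NIH3T3, with a line that had no read set to 3 reads over its libraries. The 2 libraries of one line lay wholly above or below those of the other at 11480 site groups (84.7%). Of the 4093 site groups that did not pass, 3901 had a log2 change within 1 in either direction. The median log2 change over all tested site groups was -0.39, and -0.55 with library totals in place of TMM scaling, which compares the bulk of site groups.

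The excess of lower site groups in 4T1 lay among weakly read ones. Below a mean of 4 CPM, 73.8% of 2344 site groups were called lower and 12.8% higher in 4T1, with a median log2 change of -3.01 when a line at 0 is set to 3 reads. Site groups this weak often passed the read filter on the reads of a single line, with 1170 lacking any 4T1 read and 121 any NIH3T3 read. Frequent calls and large changes in this range therefore follow in part from the filter. Between 4 and 16 CPM the shares were 44.9% lower and 21.1% higher, and between 16 and 64 CPM they were close, 33.0% and 31.0%. From 64 to 256 CPM more site groups were higher in 4T1, 42.8% against 26.7% of 2256. At 256 CPM or more the shares were 44.5% higher and 26.4% lower of 681. With a mean of at least 16 CPM the direction of the majority turned, with 2495 higher and 2088 lower in 4T1 of 6898 tested and a median log2 change of 0.15. With library totals as the scaling it did not turn (2235 higher, 2341 lower), while from 64 CPM upward more were higher under every scaling tried. Site groups called higher in 4T1 had a median of 33.6 CPM and 47.9% of them had 1 site, while those called lower had a median of 8.29 CPM and 70.7% had 1 site.

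**Figure D1:**
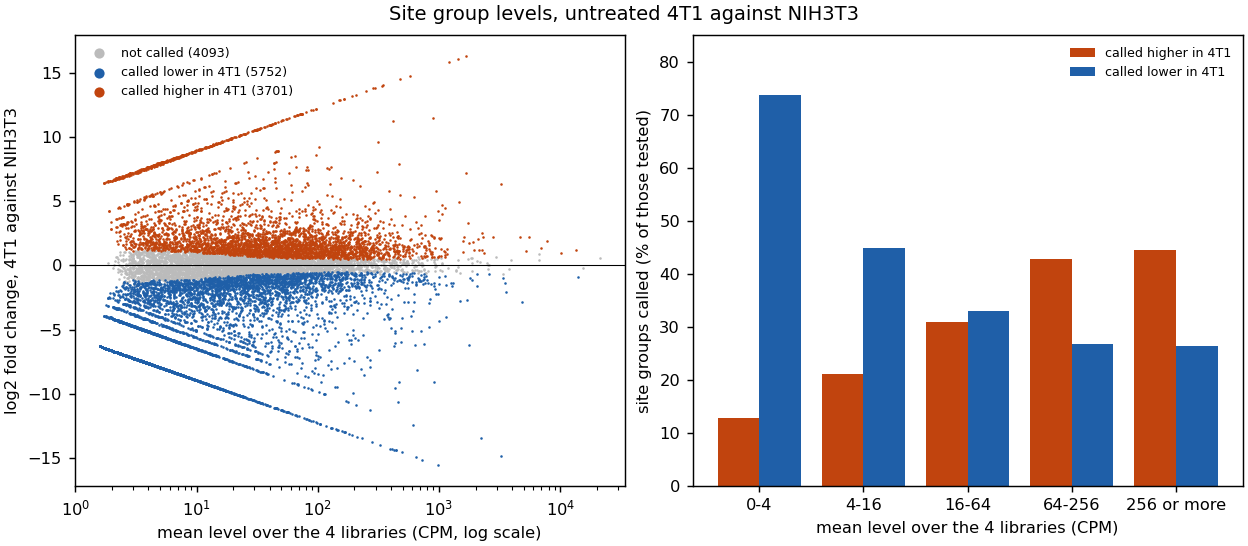
Left, log2 fold change of 4T1 against NIH3T3 (edgeR) by mean level over the 4 libraries in CPM, on a log axis, with 1 point per site group; straight bands at the edges are site groups with 0 or few reads in one line. Right, the percentage of tested site groups called higher and lower in 4T1 in each range of mean level: the share lower falls from 73.8% below 4 CPM to 26.4% at 256 CPM or more.

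Many site groups were read in the untreated libraries of one line only. There were 4072 with no read in either 4T1 library and 918 with no read in either NIH3T3 library. Most were weakly read in the other line, with medians of 24 and 22 reads over both libraries. Of those without 4T1 reads 375 had at least 100 reads in NIH3T3 and 38 at least 1000, and of those without NIH3T3 reads 164 had at least 100 reads in 4T1 and 20 at least 1000. Single-site groups made up 94.8% of the site groups without 4T1 reads and 85.9% of those without NIH3T3 reads. C2C12 also had no read at 2713 (66.6%) of the former and 425 (46.3%) of the latter. The Pcf11-IPAKO 4T1 libraries had no read at 3154 (77.5%) of the former, and the siPcf11 NIH3T3 libraries none at 809 (88.1%) of the latter. A count of 0 over 2 libraries allows up to 3 reads, and this limit covers only the error of counting, as PCR copies of a molecule are not independent.

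Isolated single sites were called lower in 4T1 at a higher share than other site groups, though most lower site groups were not isolated. Of 2623 tested single-site groups more than 100 kb from any site group of at least 10 CPM, 1794 (68.4%) were called lower and 412 (15.7%) higher in 4T1. Among the other 10923 site groups, 3958 (36.2%) were lower and 3289 (30.1%) higher. Below a mean of 4 CPM the shares lower were 87.2% of 1003 isolated and 63.8% of 1341 other site groups. Between 4 and 16 CPM they were 64.1% and 39.3%. In the weakest range the filter itself favours site groups read in a single line, as said above. The lean of isolated site groups faded at higher levels. Of those at 16 to 64 CPM 48.3% were lower and 25.9% higher, and at 64 to 256 CPM 41.9% and 34.9%. At 256 CPM or more it was 33.3% of 42 in each direction. The median level of the isolated site groups was 0.28 CPM in 4T1, 7.95 CPM in NIH3T3 and 0.13 CPM in C2C12. They took 5.25% and 4.97% of the tested reads in the 4T1 libraries, 9.20% and 9.49% in those of NIH3T3 and 4.85 to 4.996% in those of C2C12. In the treated libraries the shares were 4.98% and 5.17% for 4T1 and 9.44% and 10.02% for NIH3T3, so the libraries of a line lay together in both sets. Sites were kept on reads of untreated 4T1 and NIH3T3 only, so isolated ends particular to C2C12 could not enter. Of the isolated site groups 997 had no 4T1 read and 100 no NIH3T3 read. The C2C12 median and shares thus partly follow from this choice and are no even comparison with the other lines.

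Strong differences held a sizeable part of each line's reads. Site groups at least 10-fold higher in 4T1 took 8.94% and 9.34% of the tested reads of the 4T1 libraries and 0.31% in both NIH3T3 libraries. Those at least 10-fold lower took 15.2% and 15.4% in NIH3T3 and 0.30% and 0.26% in 4T1. Site groups that did not pass the test took 31.4% to 33.3% in the 4 libraries.

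The site groups furthest above NIH3T3 had no read there and were among the stronger ends of 4T1. A ranking by fold change favours such ends, so both traits follow largely from the choice. At 109096856 on chromosome 8, minus strand, the 4T1 libraries had 3788 and 2917 CPM (7463 and 10346 reads) and both NIH3T3 libraries none. This site was at least 7120-fold higher in 4T1, with the NIH3T3 floor set at 3 reads over both libraries (edgeR adjusted p = 3.18e-08), and C2C12 had 0.88 to 1.76 CPM. At 101861451 to 101862453 on chromosome 15, plus strand, the 4T1 libraries had 3048 and 2647 CPM and NIH3T3 none, at least 6153-fold (edgeR adjusted p = 3.18e-08). At 164389470 to 164394025 on chromosome 2, plus strand, they had 2669 and 2145 CPM and NIH3T3 none, at least 5143-fold (edgeR adjusted p = 3.18e-08). These 3 site groups had 16, 2 and 3 reads over the 4 C2C12 libraries, so they were near absent in the myoblasts too.

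The other 7 of the 10 most 4T1-biased site groups also had no NIH3T3 read. They were single sites at 135420993 on chromosome 5, minus strand, with 1449 and 861 CPM in the 4T1 libraries, and at 100002124 on chromosome 11, minus strand, with 1298 and 605 CPM. The site groups at 18575815 to 18576879 on chromosome 10, plus strand, and at 85365871 to 85366840 on chromosome 15, minus strand, had means of 693 ± 52.5 and 672 ± 29.8 CPM (SD, n = 2). The remaining 3 were at 173394141 on chromosome 1, plus strand, at 38290446 on chromosome 13, plus strand, and at 44370099 on chromosome 5, minus strand, with 594 ± 71.0, 572 ± 230.3 and 502 ± 19.96 CPM (SD, n = 2). Their folds were at least 1116 to at least 2362, with edgeR adjusted p between 3.18e-08 and 1.59e-07. C2C12 shared some of these ends at low levels, with a mean of 26.3 CPM at the site on chromosome 11 and 12.1 CPM at the site on chromosome 1.

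The site groups furthest below NIH3T3, chosen in the same way, were as one-sided. At 40503579 to 40505047 on chromosome 1, plus strand, NIH3T3 had 1848 and 2081 CPM (5862 and 7167 reads) and 4T1 no read, at least 3621-fold lower in 4T1 (edgeR adjusted p = 3.18e-08). At 43855039 to 43856662 on chromosome 9, plus strand, NIH3T3 had 1569 and 1339 CPM, with no read in 4T1 or in C2C12, at least 2666-fold lower in 4T1 (edgeR adjusted p = 3.18e-08). At 45405865 to 45406549 on chromosome 1, plus strand, NIH3T3 had 1325 and 1234 CPM and 4T1 none, at least 2350-fold lower in 4T1 (edgeR adjusted p = 3.18e-08). C2C12 lay close to NIH3T3 at this last site group, with 607 to 921 CPM. At 52675435 to 52678679 on chromosome 18, minus strand, NIH3T3 had 21143 and 22049 reads and 4T1 1 and 0. The ratio of the scaled totals was 36014 with a 95% counting interval of 6463 to 1422496 (edgeR adjusted p = 3.18e-08). This was also the strongest of the 10 in NIH3T3, at 6533 ± 187 CPM (SD, n = 2), and C2C12 had 392 to 849 CPM. In the order given, the Pcf11-IPAKO 4T1 libraries had 2 and 7, 0 and 0, 0 and 6, and 0 and 5 reads at these site groups. The folds above are of the untreated libraries only.

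In the other 6 the NIH3T3 libraries had means of 794 to 983 CPM and 4T1 no read, with folds of at least 1455 to at least 1807. They were at 73455601 on chromosome 13, plus strand, 91081270 to 91081557 on chromosome 7, minus strand, and 54620917 on chromosome 9, plus strand. The others were at 40522260 on chromosome 1, plus strand, 81850729 to 81850950 on chromosome 11, plus strand, and 117125033 to 117125087 on chromosome 6, plus strand. C2C12 had no read at the site on chromosome 13 and a mean of 202.2 CPM at the one on chromosome 6.

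**Figure D2:**
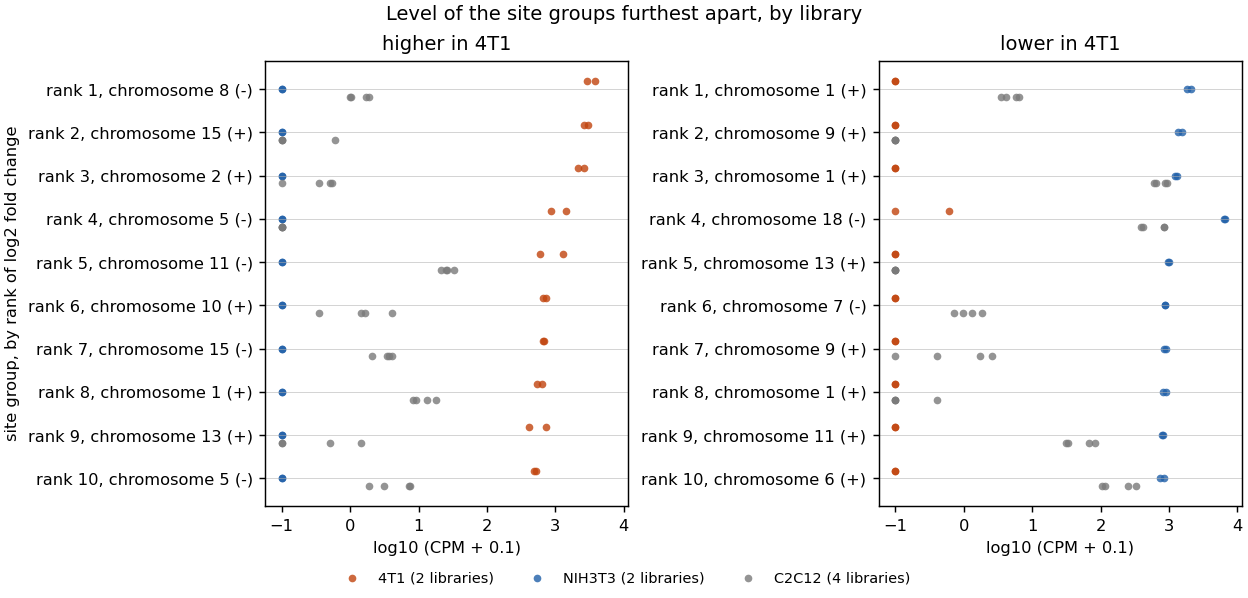
Level of the 10 site groups with the largest fold change in each direction, as log10 (CPM + 0.1), with 1 point per library; ranks follow the order in the text, and -1 on the axis is no read. The NIH3T3 points on the left and all 4T1 points but 1 on the right sit at no read, while the C2C12 points range from no read to 921 CPM.

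The most abundant site groups were shared by the lines. The most abundant in 4T1, at 90417826 to 90419345 on chromosome 3, plus strand, had 28973 and 22167 CPM in 4T1 and 17405 and 15873 CPM in NIH3T3. The log2 fold change of 0.62 did not pass (SE 0.37, edgeR adjusted p = 0.153), but passed with either 4T1 library left out and with DESeq2. At 133938748 on chromosome 7, minus strand, a single site had 17199 and 11307 CPM in 4T1 and 16936 and 15769 CPM in NIH3T3, so the lines overlapped (log2 fold change -0.20, SE 0.36, edgeR adjusted p = 0.640). Its direction turned without 4T1 replicate 2, to 0.078, and without 4T1 replicate 1 it passed at -0.53. At 76731735 to 76736744 on chromosome 15, plus strand, 4T1 had 14709 and 22878 CPM and NIH3T3 8053 and 7998 CPM (log2 fold change 1.23, SE 0.36, edgeR adjusted p = 0.00940). At 162965882 to 162968670 on chromosome 1, plus strand, 4T1 had 12240 and 14788 CPM and NIH3T3 7320 and 6445 CPM (log2 fold change 0.97, SE 0.32, edgeR adjusted p = 0.0182). C2C12 had only 62.8 to 82.4 CPM there, below both lines. In the treated libraries the direction turned, with 2955 and 5963 CPM in Pcf11-IPAKO 4T1 and 8821 and 7009 CPM in siPcf11 NIH3T3. The calls at the last 2 were lost without either NIH3T3 library.

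A clearer difference among abundant ends was that at 78760626 to 78761345 on chromosome 15, plus strand, with 13860 and 10539 CPM in 4T1 and 3468 and 2940 CPM in NIH3T3. It was higher in 4T1 by a log2 fold change of 1.93 (SE 0.32, edgeR adjusted p = 0.000218). In the other direction, the site at 179993149 on chromosome 2, plus strand, had 1481 and 860 CPM in 4T1 and 8504 and 8473 CPM in NIH3T3, and fell by 2.86 on the log2 scale (SE 0.34, edgeR adjusted p = 2.76e-05). C2C12 had 1808 to 2254 CPM there.

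Chromosomes differed in how their site groups lay. At a mean of at least 16 CPM, where the median over all chromosomes was 0.15, the median log2 change was 0.58 on chromosome 3, 0.57 on chromosomes 8 and 14 and 0.51 on chromosome 9. It was -0.25 on chromosome 6, -0.24 on chromosome 7, -0.19 on chromosome 17 and -0.15 on chromosome X. On chromosome 8, 176 of 376 such site groups were called higher and 73 lower in 4T1, and on chromosome 7, 134 of 490 higher and 187 lower. These are 46.8% and 19.4% on chromosome 8 and 27.3% and 38.2% on chromosome 7, against 36.2% higher and 30.3% lower over all such site groups. The medians of the differences in log2(CPM + 1) between each 4T1 and each NIH3T3 library ranged from 0.49 to 0.59 on chromosome 8 and from -0.31 to -0.26 on chromosome 7, so they did not overlap. The quartiles on every autosome spanned 0, from -0.34 to 1.32 on chromosome 8 and from -1.23 to 0.73 on chromosome 7. With library totals as the scaling the medians were 0.42 on chromosome 3, 0.41 on chromosomes 8 and 14 and 0.35 on chromosome 9, and -0.40 on chromosome 6 and -0.39 on chromosome 7.

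**Figure D3:**
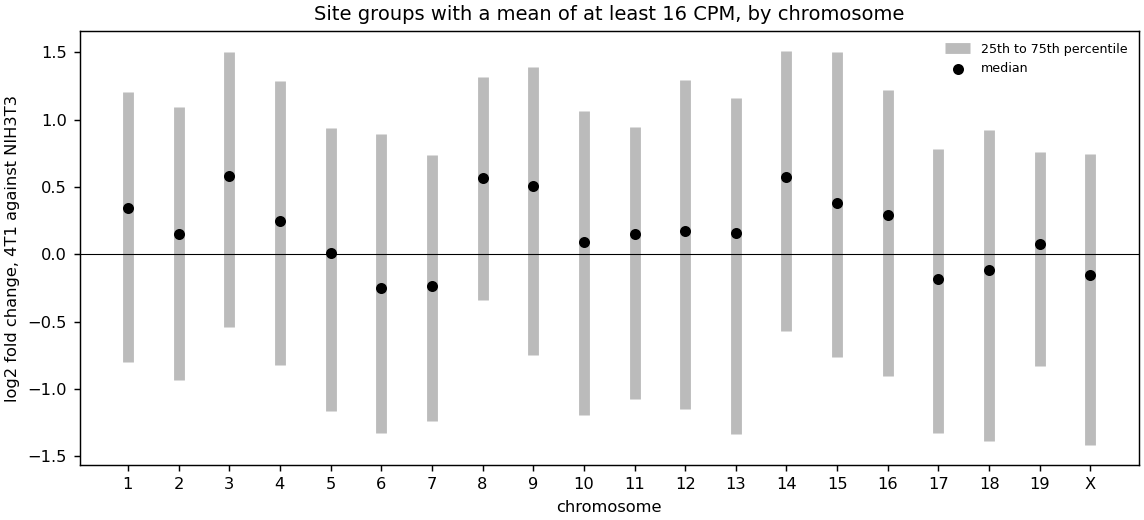
Median (points) and quartiles (bars) of the log2 fold change of 4T1 against NIH3T3 for site groups with a mean of at least 16 CPM, by chromosome. The medians of chromosomes 3, 8, 9 and 14 lie at 0.51 to 0.58, those of chromosomes 6, 7, 17, 18 and X below 0, and all bars cross 0.

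The X and Y chromosomes and the mitochondrial plus strand took fewer reads in 4T1. Reads on chromosome X made up 1.55% and 1.66% in 4T1 and 2.35% and 2.40% in NIH3T3, with 2.53 to 2.76% in C2C12. Over all levels 300 of 538 site groups on X (55.8%) were called lower and 88 (16.4%) higher in 4T1, against 42.5% and 27.3% over the genome, and 39.0% of them were isolated single sites, the kind that was mostly lower throughout the genome. Over the genome 2623 of 13546 tested site groups were isolated. With a mean of at least 16 CPM, 84 of 223 on X (37.7%) were lower and 61 (27.4%) higher. Over all such site groups 30.3% were lower and 36.2% higher, so X leaned the other way at these levels too. On chromosome Y there were 4 and 8 reads in 4T1, 75 and 85 in NIH3T3 and 7 to 14 in C2C12. The only tested site there, at 1599586 on the minus strand, had 1 and 0 reads in 4T1 and 37 and 33 in NIH3T3 (edgeR adjusted p = 0.000101). NIH3T3 had 58.4 times as many after scaling, with a 95% counting interval of 10.1 to 2338. Over both strands, mitochondrial reads made up 1.12% and 0.86% in 4T1 and 1.99% and 2.02% in NIH3T3. The tested site group on the mitochondrial minus strand did not pass, with 1124 ± 744 CPM in 4T1 and 1007 ± 59.8 CPM in NIH3T3 (SD, n = 2), a log2 fold change of 0.16 (SE 0.37, edgeR adjusted p = 0.724). Neither share overlapped between the lines, nor did the number of reads on Y, and for each the exact two-sided permutation p was 0.333, the smallest that 2 against 2 libraries allow. The 10 strongest positions of a library held a larger share of reads in 4T1, 12.0% and 11.3%, against 8.997% and 8.75% in NIH3T3.

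Some strong differences followed each other in the order of site groups along a chromosome. Runs of at least 5 neighbouring site groups, each with at least 10 CPM in its higher line and at least 4-fold apart in one direction, numbered 5 higher and 18 lower in 4T1. They held 28 of the 1207 site groups that met these limits higher in 4T1 and 98 of the 2113 that met them lower, of 9687 considered, so most such site groups lay in no run. Site groups under 10 CPM in both lines were left out before neighbours were taken. Weaker site groups, of any direction, can therefore lie between members of a run. The runs spanned 207 to 3112 kb in the former direction and 339 to 5846 kb in the latter. Whether runs of this number go beyond the unequal number of such site groups was not tested. On chromosome 15, 6 consecutive site groups on both strands between 101121376 and 101862453 summed to 5083 and 5002 CPM in the 4T1 libraries and 43.2 and 50.2 CPM in NIH3T3. This run holds the second of the most 4T1-biased site groups above and another at 101258222 to 101259018 on the plus strand, with 1626 and 1950 CPM in 4T1 and 0.95 and 0.29 CPM in NIH3T3. C2C12 was at a mean of 159.9 CPM over the run. On chromosome 11, 6 site groups between 99795362 and 100222915 summed to 1772 and 1271 CPM in 4T1 and 22.4 and 18.6 CPM in NIH3T3. Here C2C12 reached 1013 CPM, most of it at 100222915 on the minus strand, where it had a mean of 882.7 CPM against 385.9 CPM in 4T1 and 3.803 CPM in NIH3T3.

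A run on chromosome 4, between 140301773 and 140508497, had no NIH3T3 read at any of its 5 site groups and 173.6 and 306.2 CPM in the 4T1 libraries. The other 2 runs higher in 4T1 were both on chromosome 15, at 38364716 to 38869738 and at 60650776 to 63762497, with 904 and 921 CPM and with 407 and 427 CPM in 4T1. NIH3T3 had 180.0 and 171.6 CPM in the former and 63.995 and 62.1 CPM in the latter.

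Among the runs lower in 4T1, the one with the most members spanned 44201362 to 46909098 on chromosome 1 and held 7 site groups. It summed to 45.2 and 22.0 CPM in 4T1 and 1821 and 1642 CPM in NIH3T3, and includes the site group at 45405865 above. A run on chromosome 3, between 148580654 and 151637394, had 0.51 and 0.28 CPM in 4T1, 310.8 and 298.4 CPM in NIH3T3 and 1.20 CPM in C2C12. On chromosome 6, 5 site groups between 123934246 and 124485755 summed to 3.55 and 3.38 CPM in 4T1 and 648 and 597 CPM in NIH3T3. The site groups at 124473142 to 124473460, plus strand, and 124480367 to 124480427, minus strand, carried most of that level, with 256.1 and 326.7 CPM in NIH3T3 and no read in 4T1.

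C2C12 was set beside both lines at these strong differences. Site groups at least 10-fold higher in 4T1 took 3.26 to 3.33% of the tested reads in the C2C12 libraries, and those at least 10-fold lower took 3.14 to 3.87%, in both cases between the shares of 4T1 and NIH3T3 given above. Of 612 site groups at least 10-fold higher in 4T1 and above 10 CPM there, the C2C12 level was nearer to NIH3T3 at 394 (64.4%) on the log2(CPM + 1) scale. Of 1531 at least 10-fold lower and above 10 CPM in NIH3T3, it was nearer to 4T1 at 1141 (74.5%). Both sets were chosen for a high level in one line and a low one in the other, so these counts are a description of the sets and not of a likeness between lines. Over all 9689 tested site groups with at least 10 CPM in the higher line, C2C12 was nearer to 4T1 at 5622 and to NIH3T3 at 4067. Median levels of the first set were 38.2 CPM in 4T1, 0.32 in NIH3T3 and 2.91 in C2C12, and of the second 0.25, 25.3 and 0.38 CPM.

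The treated libraries, which share none with the comparison above, differed between the lines mostly in the same direction. Of the 3701 site groups called higher in untreated 4T1, 3521 had the same sign in Pcf11-IPAKO 4T1 against siPcf11 NIH3T3, 2617 passed in that direction and 20 in the other. Of the 5752 called lower, 5527 had the same sign, 4609 passed and 29 passed in the other direction. In that fit 60.4% of site groups passed. The treatments differ between the lines, so this set holds the effects of both as well as the lines.

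Poly(A) site choice was compared in the pair of most used sites of each site group. The distal site's share of the reads of a pair differed at 1256 of 2778 pairs (45.2%), 537 (19.3%) more distal and 719 (25.9%) more proximal in 4T1 (edgeR diffSpliceDGE, Benjamini-Hochberg adjusted p under 0.05). At 855 of them the change was at least 20 percentage points and at 206 at least 50, with 73 of these more distal and 133 more proximal in 4T1. The libraries of the lines did not overlap at 2007 pairs (72.2%). Counts fell to 807 and 814 called pairs without NIH3T3 replicate 1 or 2, when the spread comes from the 4T1 libraries alone. With positions as listed and not joined, 2007 pairs passed, among them all 586 pairs of positions within 24 nt of each other.

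Averaged over pairs, 4T1 used distal sites less. The distal site took a mean of 49.3% and 50.5% of reads in the 4T1 libraries and 52.97% and 53.01% in the NIH3T3 libraries. The means were 49.9% ± 0.826 and 52.99% ± 0.0308 (SD, n = 2), a difference of -3.07 percentage points (exact two-sided permutation p = 0.333, the smallest possible). Without joining of positions the difference was -0.36 percentage points. Over 2462 pairs with at least 10 reads in every library, C2C12 had 52.6 to 52.8%, close to the 52.9% and 53.1% of NIH3T3, and the 4T1 libraries had 49.5% and 50.4%. On these pairs the Pcf11-IPAKO 4T1 libraries had 46.5% and 47.5% and the siPcf11 NIH3T3 libraries 56.98% and 57.7%, further apart than the untreated ones. The closeness of C2C12 to NIH3T3 is one of averages and did not hold for the furthest sites, as given below.

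The difference was wider in each class of longer distance between the sites. For sites under 200 nt apart it was -0.50 percentage points (704 pairs), for 200 to 1000 nt -1.48 (907 pairs), for 1000 to 2000 nt -4.49 (539 pairs) and for 2000 nt or more -7.01 (628 pairs). In the last class the distal site took 46.6% and 48.7% in 4T1 and 54.6% and 54.8% in NIH3T3, and 109 pairs were called more distal and 198 more proximal in 4T1. In the closest class these counts were 154 and 138. In all 4 classes the lines did not overlap (exact permutation p = 0.333 each). In order of distance the C2C12 mean was 52.6%, 53.4%, 54.8% and 50.2%. It lay above both lines for sites under 1000 nt apart and between them for sites 2000 nt or more apart. Without joining of positions the difference was 5.46 percentage points for the closest sites, in the other direction, and -7.11 for the furthest. Far sites may belong to different transcripts of a site group, and with gaps of up to 2 kb the difference for sites 2000 nt or more apart was -6.99 percentage points over 120 pairs.

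**Figure D4:**
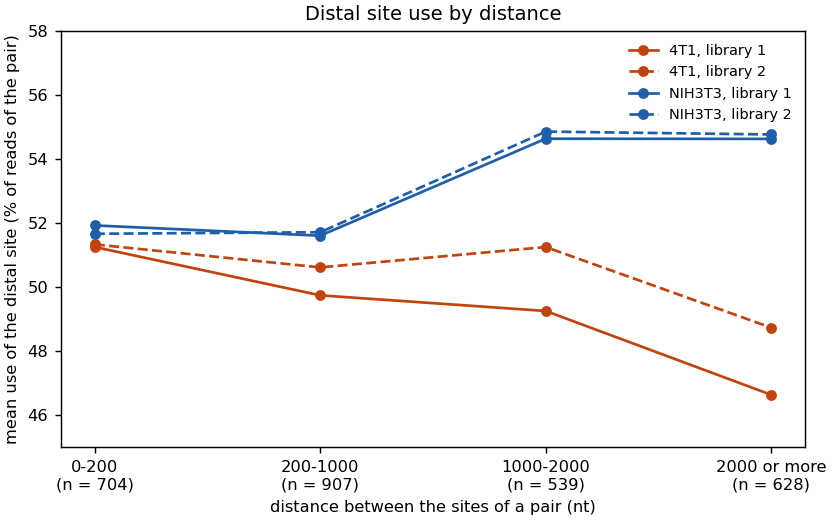
Mean share of the reads of a pair at its distal site, in percent, by distance between the sites in nt, with 1 line per library; the vertical axis starts at 45%. The libraries lie between 51.3% and 51.9% for sites under 200 nt apart, and for sites 2000 nt or more apart those of 4T1 are at 46.6% and 48.7% and those of NIH3T3 at 54.6% and 54.8%.

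Site choice and level were called in different combinations. Of the called pairs, 417 lay in site groups higher in 4T1, 302 in site groups lower in 4T1 and 537 in site groups that did not pass for level. Pairs were called at 42.7% of the tested pairs in site groups higher in 4T1, 53.5% in site groups lower in 4T1 and 43.4% in the rest.

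At some pairs the lines used nearly exclusive sites. The distal site took over 80% in both libraries of one line and under 20% in both of the other at 30 pairs, 10 distal in 4T1 and 20 distal in NIH3T3. On chromosome 7, plus strand, the sites at 31093386 and 31104065 had 100% distal use in both 4T1 libraries, with 46 and 152 reads there and none at the proximal site. NIH3T3 had 2.65% and 5.00% and C2C12 0 to 1.59% (edgeR adjusted p = 4.34e-11). At 106627397 and 106626420 on chromosome 7, minus strand, the distal share was 92.9% and 89.9% in 4T1 and 10.6% and 10.8% in NIH3T3 (edgeR adjusted p = 4.42e-11). C2C12 had 100% there, on the side of 4T1. At 88826127 and 88826990 on chromosome 4, plus strand, it was 97.7% and 98.8% in 4T1 and 21.4% and 25.3% in NIH3T3 (edgeR adjusted p = 5.83e-12), with 91.8 to 95.4% in C2C12.

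The pair at 73469207 and 73469626 on chromosome 13, plus strand, lies downstream of the NIH3T3 site at 73455601 described above. Its distal use was 100% in both 4T1 libraries and 20.6% and 23.7% in NIH3T3 (edgeR adjusted p = 2.43e-08), with 93.8 to 96.8% in C2C12. The level of this site group did not pass, at 24.3 CPM in 4T1 and 23.9 CPM in NIH3T3 (log2 fold change 0.00, SE 0.39, edgeR adjusted p = 0.996). The other 4 of the 8 pairs furthest to the distal side in 4T1 were at 7625169 and 7624811 on chromosome 6, minus strand, 6322802 and 6323267 on chromosome 4, plus strand, 25919768 and 25919732 on chromosome 17, minus strand, and 124532313 and 124532484 on chromosome 4, plus strand. Their mean distal use was 80.7 to 89.9% in 4T1 and 6.53 to 16.9% in NIH3T3. C2C12 had a mean of 31.9% at the pair on chromosome 6 and 80.8 to 85.8% at the other 3.

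In the other direction, the sites at 47272258 and 47272336 on chromosome 18, plus strand, had 4.88% and 5.38% distal use in 4T1 and 100% in both NIH3T3 libraries (edgeR adjusted p = 1.17e-11). Here the proximal site had 312 and 299 reads in 4T1 and none in NIH3T3, and C2C12 had 98.1 to 100% distal use. At 131027256 and 131029376 on chromosome 8, plus strand, the distal share was 10.8% and 9.40% in 4T1 and 100% in both NIH3T3 libraries (edgeR adjusted p = 1.02e-12). The proximal site had 856 and 1378 reads in 4T1 and none in NIH3T3, and the distal site 104 and 143 reads in 4T1 against 170 and 168. C2C12 lay between the lines with 34.1 to 45.5%. The level of the site group was higher in 4T1 by a log2 fold change of 3.16 (SE 0.23, edgeR adjusted p = 5.89e-07).

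At 32513375 and 32511954 on chromosome 14, minus strand, the distal site took 2.27% and 0% in 4T1 and 96.4% and 86.4% in NIH3T3 (edgeR adjusted p = 1.46e-08). At 75208812 and 75210817 on chromosome 1, plus strand, it took 0% and 1.14% in 4T1 and 83.2% and 84.4% in NIH3T3 (edgeR adjusted p = 4.77e-10). C2C12 was near 4T1 at both, with means of 12.1% and 3.21%. The other 4 were at 6122444 and 6124839 on chromosome 17, plus strand, 84770439 and 84770495 on chromosome 15, plus strand, 19964673 and 19962584 on chromosome 11, minus strand, and 44218275 and 44218474 on chromosome 9, plus strand. Mean distal use at these was 1.87 to 17.6% in 4T1 and 81.2 to 99.6% in NIH3T3. Replicates of 4T1 were widest apart at the pair on chromosome 11, with 27.0% and 6.82%.

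**Figure D5:**
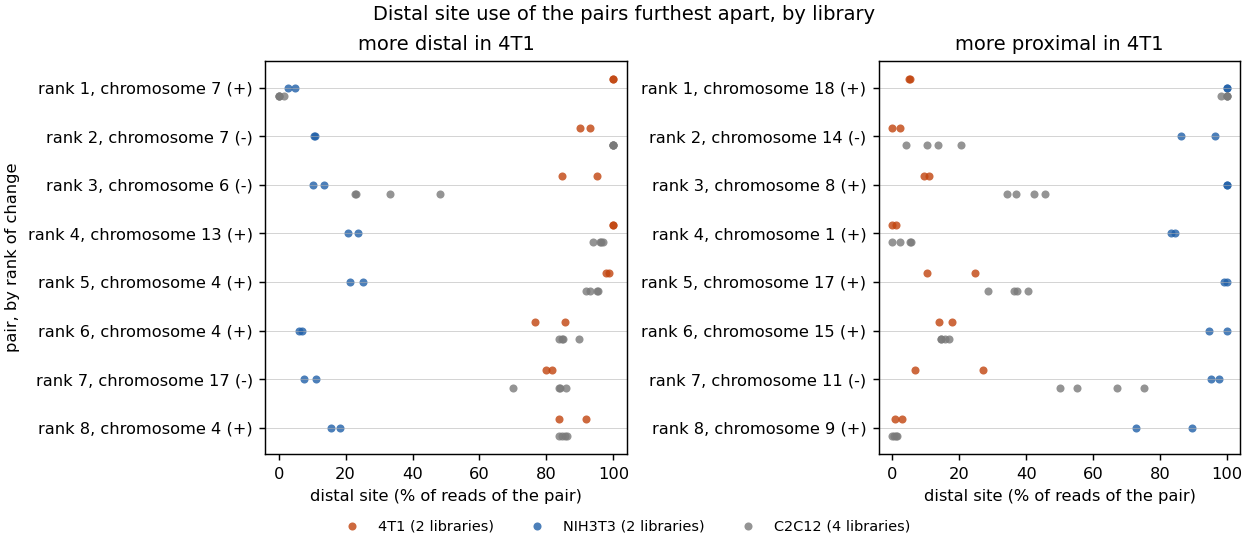
Distal site use, in percent of the reads of a pair, of the 8 pairs with the largest change in each direction, with 1 point per library; ranks go by the size of the change. The 4T1 and NIH3T3 points lie at opposite ends of every row, and the C2C12 points are with 4T1 in most rows, with NIH3T3 in the first row of both panels, and between the lines in others.

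A mitochondrial pair, chosen after its values were seen, had the most reads of any switch described here. On the mitochondrial plus strand the ends at 11544 and 15288 had 9894 and 14996 reads at the former in 4T1 and 94 and 198 at the latter. NIH3T3 had 6275 and 7608 reads at the former and 27533 and 28941 at the latter. Use of the end at 15288 was thus 0.94% and 1.30% in 4T1 and 81.4% and 79.2% in NIH3T3 (edgeR adjusted p = 4.52e-15). It was 2.32 to 3.55% in C2C12, 0.88% and 1.45% in Pcf11-IPAKO 4T1 and 83.0% and 83.4% in siPcf11 NIH3T3, so the NIH3T3 libraries stood apart from the other lines in both sets. As background, mitochondrial transcripts are cut out of long precursors, so the 2 ends may mark different RNAs and their shares are then relative amounts, not a choice of poly(A) site. Reads on the whole plus strand were 10899 and 8499 CPM in 4T1 and 18686 and 18355 CPM in NIH3T3 (log2 fold change -0.93, SE 0.34, edgeR adjusted p = 0.0294, a call lost without either NIH3T3 library), and 25110 to 29965 CPM in C2C12.

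With all used sites tested singly, 1671 of 6984 (23.9%) differed in their share of the site group's reads, 762 higher and 909 lower in 4T1 (edgeR diffSpliceDGE, Benjamini-Hochberg adjusted p under 0.05). They lay in 1204 of 2860 site groups, and in 197 of these no pair had been called. Without NIH3T3 replicate 1 or 2, 784 and 805 single sites passed. The effective number of sites, which is 1 when a single site takes all reads, was 1.71 and 1.72 in 4T1 and 1.75 and 1.74 in NIH3T3 over 1607 site groups (exact permutation p = 0.333).

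Distal use in C2C12 was nearer to 4T1 than to NIH3T3 at 1575 of all 2667 pairs (59.1%) with enough C2C12 reads, called or not. The count was 338 of 508 (66.5%) for pairs more distal in 4T1 and 399 of 684 (58.3%) for pairs more proximal in 4T1. C2C12 lay outside the range between the lines at 239 (47.0%) and 296 (43.3%) of these. It did so at 1760 (66.0%) of all these pairs and at 1225 (83.1%) of those not called. Nearness therefore does not place it with either line. In the treated libraries, 445 of the 537 pairs more distal in 4T1 could be tested, and 375 had the same sign, 162 passed in that direction and 5 in the other. Of the 719 more proximal in 4T1, 614 could be tested, and 600 had the same sign, 428 passed and 1 passed in the other direction. As for levels, this set holds the effects of both treatments as well as the lines. Mean distal use of the treated libraries lay further apart than that of the untreated ones, as given above. These counts therefore do not measure the line difference alone. In the fit of the treated libraries 34.7% of pairs passed.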

How the data were processed

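The deposited site tables list a chromosome, strand, position and whole-number read count, left unnormalized by the authors. Cutadapt, Bowtie2, STAR and mm9 are named in the submitters' processing notes. How reads were clustered into positions is not given in the sources used here, and positions differed by a few nt between the lines. The members and the settings were chosen with earlier results of these data known.

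Positions of the 4 libraries were joined within 24 nt, strongest first. Levels were tested with edgeR's quasi-likelihood test on TMM-scaled counts, keeping what filterByExpr passed at its minimum count of 10, and site use with diffSpliceDGE where each library also had at least 10 reads at the sites (edgeR 4.0.16, limma 3.58.1, R 4.3.3). CPM of the compared libraries are TMM-scaled among themselves. Those of C2C12 and treated libraries are TMM-scaled in a separate set that also holds the compared libraries. Site groups named are the 10 with the largest log2 change in each direction with at least 50 CPM in the higher line and the 5 most abundant of each line, and pairs are the 8 with the largest change in each direction with at least 30 reads in each library. Members of runs, the site group on chromosome Y and the mitochondrial pair were named after their values were seen, as were the limits that define runs and isolated sites. Gene lists, cell type markers and intronic sites, which need an mm9 annotation, were not analysed here. An SE is the log2 change divided by the square root of F. The fits were tested on simulated counts. DESeq2 1.42.0 was an alternative. Python 3.11.15, pandas 2.3.3, numpy 2.4.6, scipy 1.17.1 and matplotlib 3.10.9 were used for tables, exact tests and plots.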

Additional observations from a re-analysis of the deposited data

How the results depend on the processing

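Called levels numbered 8408 with DESeq2, 8118 in libraries thinned to the smallest and 13231 with no low-count filter. A fit of all 8 libraries of both lines gave 8550, and each of these settings had more lower than higher in 4T1. That fit still compared the untreated libraries, and the treated ones entered only the scaling and the estimate of spread. With 1 library left out, the median log2 change was -0.47 to -0.38. With a mean of at least 16 CPM, chosen after seeing the data, 4583 were called and the majority turned (2495 higher, 2088 lower), but not with library totals as well (2235 and 2341). With 1 library left out, called pairs numbered 807 to 1448 and called single sites 784 to 2016. Positions as listed gave 2007 pairs, 3804 single sites, a difference in mean distal use of -0.36 and, for sites under 200 nt apart, 5.46. Listed this way, an end that the lines place a few nt apart counts as separate sites. The fit of all 8 libraries gave 1043 single sites. The difference in mean distal use was -3.65 to -2.49 with 1 library left out. For sites under 200 nt apart it was -0.70 with joining within 50 nt and -0.28 with gaps of up to 2 kb, and for sites 2000 nt or more apart -4.86 with gaps of up to 10 kb. The causes of these last changes were not tested. The replicate number as a block, which no label ties to a shared origin and which did not deviate together (r = -0.02 over 6898 site groups), gave 8966 levels, 1195 pairs and 1598 single sites. Of 323 values of named levels, 6 lost and 5 gained a call, and the log2 change at 133938748 on chromosome 7, minus strand, was -0.53 without 4T1 replicate 1 and turned to 0.078 without 4T1 replicate 2. All 176 values of named pairs kept direction and call. Neither named levels nor named pairs were followed under other joining distances, gaps or use limits. The sites at 25919768 and 25919732 on chromosome 17, minus strand, are 36 nt apart, within the wider joining distance of 50 nt. Left-out libraries leave a lone library that is assumed to vary like the other line. Depth limits site groups near the 1 CPM minimum, where 1 to 3 reads decide between few and none.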
